A study of Homo sapiens with 6 samples.

Results

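The 10 genes described here encode 3 WDFY proteins (WDFY1, WDFY2 and WDFY3) and 7 members of the myotubularin family of lipid phosphatases (MTM1, MTMR1, MTMR2, MTMR3, MTMR4, MTMR6 and MTMR9). They were measured in PC3, an established human prostate cancer cell line, on Affymetrix HG-U133 Plus 2.0 arrays. Every probe set whose platform annotation names only one of these genes was taken, which gave 30 of the 54675 probe sets on the array and all 10 of the genes, out of 19775 genes with such a probe set. Averaged over the 6 arrays, 23 of the 30 probe sets reached log2 4, the minimum for the tests below, and each gene had at least 2 of them. The other 7 had means from 1.85 to 3.76 and are not described further. All cells were grown with 10% fetal bovine serum, transfected with siRNA and collected 72 h later. The 3 groups had received a scrambled siRNA, an siRNA pool against VEGF-C, a growth factor of lymphatic vessels, or an siRNA pool against NRP-2 (neuropilin-2), a co-receptor of VEGF-C. Each group has 2 arrays, here called array 1 and array 2. Nothing in the labels says that the arrays of a group stem from independent cultures. The spread behind every p-value is therefore that between these arrays and may be technical. Each target was addressed with a single pool, from Dharmacon for VEGF-C and from Santa Cruz Biotechnology for NRP-2, so effects of depletion, of the pool's sequences and of the supplier cannot be told apart.

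Phosphatidylinositol 3-phosphate (PI3P) is a lipid that marks early endosomes and forming autophagosomes. The kinase PIK3C3 makes it, proteins with a FYVE domain or a WIPI-type propeller bind it, and myotubularins remove its phosphate or pair with an active relative that does. WDFY1 and WDFY2 carry a FYVE domain beside WD repeats and sit on endosomes, while WDFY3, also called ALFY, is a very large FYVE protein that links ubiquitinated protein aggregates to the autophagy machinery. MTMR9 differs from the other phosphatases described here in being catalytically inactive; it binds MTMR6 and raises its activity. The title of the series names autophagy under control of the VEGF-C axis as its subject, and the comparisons ask which transcripts differ when the ligand or the co-receptor is targeted.

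On their brightest probe sets, WDFY1 and MTMR6 were the genes of this family that stood higher with both targeting siRNAs. The dimmer MTMR6 probe set was higher with VEGF-C siRNA only. The proximal promoters of these genes are printed here, as the 250 bases before the annotated start, 5′ to 3′ on the gene's strand (RefSeq, GRCh38.p14). Capitals mark GC boxes (GGGCGG on either strand). The WDFY1 promoter lies at chr2:223945336-223945585 and the MTMR6 promoter at chr13:25287489-25287738, both on the minus strand.
WDFY1: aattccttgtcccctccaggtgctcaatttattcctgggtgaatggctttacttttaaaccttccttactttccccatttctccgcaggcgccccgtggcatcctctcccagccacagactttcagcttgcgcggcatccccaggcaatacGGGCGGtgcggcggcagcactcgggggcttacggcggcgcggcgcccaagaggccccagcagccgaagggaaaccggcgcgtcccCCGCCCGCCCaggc
MTMR6: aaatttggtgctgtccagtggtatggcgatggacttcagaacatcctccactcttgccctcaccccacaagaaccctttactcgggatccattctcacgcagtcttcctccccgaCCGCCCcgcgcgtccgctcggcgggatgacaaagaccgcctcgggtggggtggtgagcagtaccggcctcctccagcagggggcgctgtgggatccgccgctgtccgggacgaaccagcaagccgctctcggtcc
The WDFY1 window held 3 GC boxes, of which 2 overlap near the start, and the MTMR6 window held 1. A GC box was present in 42.6% of the 35116 promoters in the table. It was also found in at least 1 promoter of each of the 7 family genes listed there (WDFY1, MTM1, MTMR1, MTMR2, MTMR3, MTMR4 and MTMR6). The latter is a count of genes with 12 promoters among them, up to 3 a gene, and cannot be set against the share of promoters. None of the letters of 8 other motifs was found in the WDFY1 or MTMR6 window, searched on both strands. These were the E-box core CACGTG (6.34% of all promoters), the CCAAT box (32%), the TATA box TATAAA (10.7%), the core of the interferon-stimulated response element (3.02%), the AP-1 site TGANTCA (6.57%), the cAMP response element TGACGTCA (1.65%), the core of the antioxidant response element TGACNNNGC (10.9%) and that of the amino acid response element TGATGNAA (3.14%). The E-box core occurred in the promoter of 1 family gene, MTM1.

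The deposited values are log2 signals, and a difference below is a difference of group means on that scale. Array medians lay between 2.997 and 3.07. VEGFC was lower with its own siRNA by a log2 difference of -3.95 (SE 0.39) and NRP2 with its own by -1.74 (SE 0.26), both uncalled over all genes (limma, adjusted p = 0.204 and 0.213). NRP2 was higher with VEGF-C siRNA, without overlap (+0.91, SE 0.26, limma unadjusted p = 0.0157, adjusted p = 0.257). Its signal was dim, with a mean of 4.57 near the minimum of log2 4. It stood at 4.77 and 4.92 with scrambled, 5.51 and 6.01 with VEGF-C and 3.41 and 2.81 with NRP-2 siRNA. The 4 epithelial markers had means between log2 12.04 and 14.65. Of the luminal prostate markers KLK3 averaged 6.46 and TMPRSS2 8.51, while 0 of 2 leukocyte markers, 1 of 3 endothelial markers (PECAM1) and 2 of 4 fibroblast markers (COL1A1 and COL3A1) reached log2 4. The arrays also differed in cell cycle genes: the mean of 26 G2 and mitosis genes was 10.15 and 8.45 on scrambled arrays 1 and 2, 11.06 and 10.29 on the VEGF-C arrays and 10.87 and 9.83 on the NRP-2 arrays. All 26 had higher means with either targeting siRNA, where 5490 (VEGF-C) and 5768 (NRP-2) of the 11131 genes tested did. The groups did not overlap for 20 of them with VEGF-C and 2 with NRP-2 siRNA, against 26.8% and 25.3% of all genes. At an unadjusted p under 0.05 in limma 3 and 0 were higher, against 6.95% and 6.43%. Those with the smallest p were the kinetochore motor CENPE (+1.27 with VEGF-C and +0.92 with NRP-2 siRNA, SE 0.44), the ubiquitin-conjugating enzyme UBE2C (+1.59 and +1.02, SE 0.58) and the kinase AURKB (+1.99 and +1.33, SE 0.76). Values that take this mean into account are given below where the result touches it. In RNA from whole cultures, fewer cells of a kind and less RNA per cell cannot be told apart.

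WDFY1, which besides binding PI3P acts as an adaptor of the Toll-like receptors TLR3 and TLR4, was higher with both targeting siRNAs. It stood at log2 10.10 and 10.43 on the scrambled arrays, at 11.84 and 11.59 on the VEGF-C arrays and at 12.04 and 11.83 on the NRP-2 arrays. All 4 arrays with a targeting siRNA were thus above both scrambled arrays, while the VEGF-C and NRP-2 arrays overlapped. The difference was +1.45 (SE 0.18, 2.74-fold, 95% interval 2.01 to 3.73) with VEGF-C siRNA and +1.67 (SE 0.18, 3.18-fold, 2.33 to 4.33) with NRP-2 siRNA. Among the 11131 genes tested it had the 9th smallest p with VEGF-C siRNA and the 5th smallest with NRP-2 siRNA (limma, unadjusted p = 0.000293 and 0.000144), yet neither passed after Benjamini-Hochberg adjustment over all genes (0.204 and 0.213). Its second probe set stood at 8.82 and 9.16 with scrambled, 10.59 and 10.23 with VEGF-C and 10.72 and 10.09 with NRP-2 siRNA, again with no overlap between scrambled and targeting arrays (+1.42 and +1.41, SE 0.28). Once the cell cycle mean entered the fit as a covariate, the brightest probe set differed by +1.49 (SE 0.26) and +1.70 (SE 0.24).

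**Figure D1:**
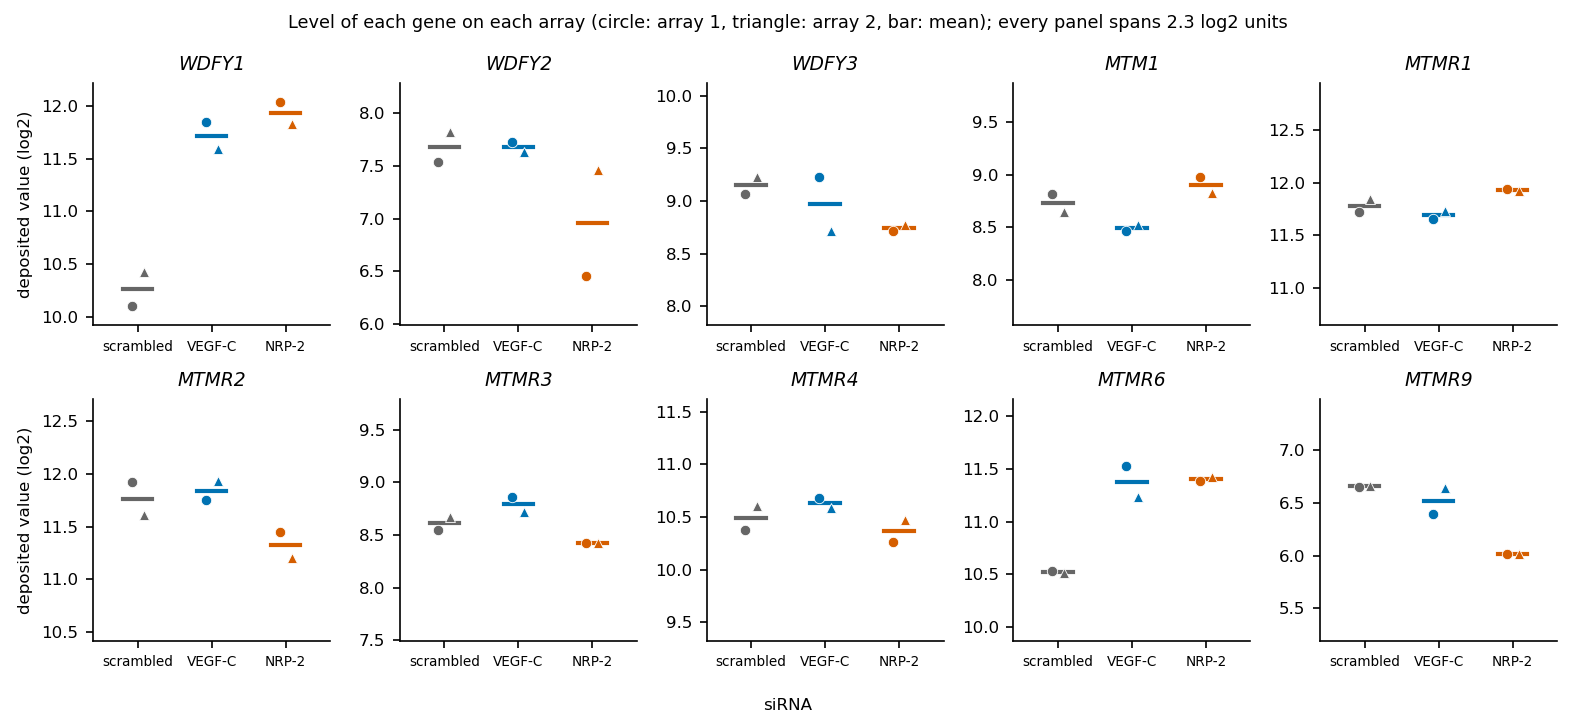
Deposited log2 value (y axis) of the brightest probe set of each gene on each array, by siRNA (x axis); circles are array 1, triangles array 2 and bars the mean of both, and every panel spans the same range. WDFY1 and MTMR6 lie higher on all 4 targeting arrays than on both scrambled arrays. MTMR9, MTMR2, MTMR3 and WDFY2 lie lowest on the NRP-2 arrays.

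WDFY2, an endosomal relative of WDFY1 that binds the kinase AKT, did not share this pattern. Its brightest probe set gave 7.53 and 7.82 with scrambled, 7.72 and 7.64 with VEGF-C, and 6.46 and 7.46 with NRP-2 siRNA. The low value on NRP-2 array 1 set most of the difference from scrambled siRNA, which was -0.72 (SE 0.33, limma adjusted p = 0.416) with both NRP-2 arrays, -1.22 without NRP-2 array 2 (unadjusted p = 0.00182) and -0.22 without NRP-2 array 1. The other WDFY2 probe set past the filter ran from 5.17 to 5.44 over the 6 arrays and was at +0.08 (SE 0.05) with NRP-2 siRNA, so the probe sets differ in sign. With the replicate number as a block, the brightest probe set reached an unadjusted p of 0.0456 in limma (adjusted p = 0.280). With VEGF-C siRNA the brightest probe set was at 0.0037 (95% interval -0.83 to 0.84), an interval that holds changes up to 1.79-fold. The dimmer one was higher there without overlap (+0.18, SE 0.05, limma unadjusted p = 0.022).

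WDFY3, the aggregate-clearing scaffold, stood at 9.07 and 9.23 with scrambled, 9.23 and 8.72 with VEGF-C and 8.71 and 8.77 with NRP-2 siRNA. Both NRP-2 arrays were below both scrambled arrays (-0.41, SE 0.20, limma unadjusted p = 0.0887, adjusted p = 0.432; unadjusted p = 0.0296 without either VEGF-C array or with both left out), whereas 1 VEGF-C array was as high as the scrambled arrays and the other as low as the NRP-2 arrays (-0.18, SE 0.20). Without VEGF-C array 1 the VEGF-C difference was -0.43 (limma, unadjusted p = 0.0457), and without VEGF-C array 2 it was +0.08. All 3 WDFY3 probe sets past the filter were below 0 in both comparisons, from -0.42 to -0.18 with VEGF-C siRNA and from -0.45 to -0.15 with NRP-2 siRNA. The second brightest of them was lowest on the NRP-2 arrays (6.99 and 7.28, against 7.63 and 7.54 with scrambled and 7.40 and 7.40 with VEGF-C siRNA). The dimmest was instead lowest on the VEGF-C arrays (6.76 and 6.43, against 6.81 and 7.23 with scrambled and 6.93 and 6.80 with NRP-2 siRNA). The probe sets thus differ on which siRNA goes with the lowest level.

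Among the phosphatases, MTMR6 was higher with both targeting siRNAs and its inactive partner MTMR9 was lower with NRP-2 siRNA. MTMR6 stood at 10.54 and 10.51 with scrambled, 11.53 and 11.24 with VEGF-C and 11.39 and 11.42 with NRP-2 siRNA, without overlap between scrambled and targeting arrays. The differences of +0.86 (SE 0.14, 1.81-fold, 95% interval 1.42 to 2.32) and +0.88 (SE 0.14, 1.84-fold, 1.44 to 2.35) had the 57th and 49th smallest p of all genes (limma, unadjusted p = 0.00126 and 0.0011, adjusted p = 0.204 and 0.213). The probe sets of MTMR6 disagreed on NRP-2 siRNA. The dimmer one gave 6.93 and 6.86 with scrambled, 7.49 and 7.31 with VEGF-C, and 6.81 and 6.97 with NRP-2 siRNA, a difference of +0.51 (SE 0.09) with VEGF-C siRNA and of -0.0049 (SE 0.09) with NRP-2 siRNA. The mean of both probe sets was at +0.68 and +0.44, so the size with NRP-2 siRNA depended on the choice of probe set. Which transcripts each probe set reads is not given in the sources used here.

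MTMR9 was close to constant with scrambled siRNA (6.65 and 6.66), ranged from 6.39 to 6.64 with VEGF-C siRNA and stood at 6.02 on both NRP-2 arrays. The NRP-2 arrays were below all others (-0.64, SE 0.13, limma unadjusted p = 0.00384, adjusted p = 0.227), and the VEGF-C difference was -0.14 (SE 0.13). Its second probe set went the same way, with 6.52 and 6.68 with scrambled, 5.92 and 6.46 with VEGF-C and 5.31 and 5.78 with NRP-2 siRNA (-0.42 and -1.05, SE 0.26). The groups differed in the same order on both probe sets: scrambled highest, VEGF-C between and NRP-2 lowest, with no overlap between any 2 groups. With NRP-2 siRNA, MTMR6 was thus higher on its brighter probe set and MTMR9 lower on both of its probe sets past the filter.

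MTMR2, whose loss causes a demyelinating neuropathy, was lower with NRP-2 siRNA at an unadjusted p that crossed 0.05 with the settings. It stood at 11.92 and 11.61 with scrambled, 11.75 and 11.93 with VEGF-C and 11.45 and 11.20 with NRP-2 siRNA, so that both NRP-2 arrays were below all others (-0.44, SE 0.17, limma unadjusted p = 0.0468, adjusted p = 0.373). With the replicate block the unadjusted p from limma was 0.0503. A second probe set gave the same order (9.09 and 8.87, 9.13 and 9.27, then 8.64 and 8.25 with NRP-2 siRNA; -0.53, SE 0.17), while on the third the groups overlapped (-0.04, SE 0.26). The difference of the brightest probe set was -0.28 without scrambled array 1 and -0.60 without scrambled array 2.

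On their brightest probe sets the remaining active phosphatases differed little from scrambled siRNA. MTM1, the gene of X-linked myotubular myopathy, stood at 8.81 and 8.65 with scrambled, 8.46 and 8.53 with VEGF-C and 8.98 and 8.83 with NRP-2 siRNA. Its VEGF-C arrays were below and its NRP-2 arrays above both scrambled arrays (-0.23 and +0.17, SE 0.13, limma adjusted p = 0.451 and 0.575), and its second probe set was below scrambled in both comparisons (-0.23 and -0.10, SE 0.10). MTMR1, the closest relative of MTM1, lay between 11.65 and 11.94 on every array (-0.09 and +0.15, SE 0.12). That probe set carries the suffix that Affymetrix gives to sets whose probes may also bind other transcripts. Its next probe set gave -0.17 and +0.09 (SE 0.05), the same signs, and the third, near the minimum level, gave +0.17 and -0.05 (SE 0.26), the opposite ones.

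MTMR3 and MTMR4 carry a FYVE domain of their own beside the phosphatase domain. MTMR3 stood at 8.55 and 8.67 with scrambled, 8.86 and 8.72 with VEGF-C and 8.43 and 8.42 with NRP-2 siRNA (+0.18 and -0.19, SE 0.12). Its second probe set showed the opposite with VEGF-C siRNA, with 7.29 and 7.33 against 7.11 and 6.80 (-0.36, SE 0.11), and +0.02 with NRP-2 siRNA, so no direction is given for this gene. MTMR4 lay between 10.27 and 10.68, with overlapping groups in both comparisons against scrambled siRNA (+0.14 and -0.12, SE 0.15), and so did its second probe set (+0.02 and -0.22, SE 0.14).

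**Figure D2:**
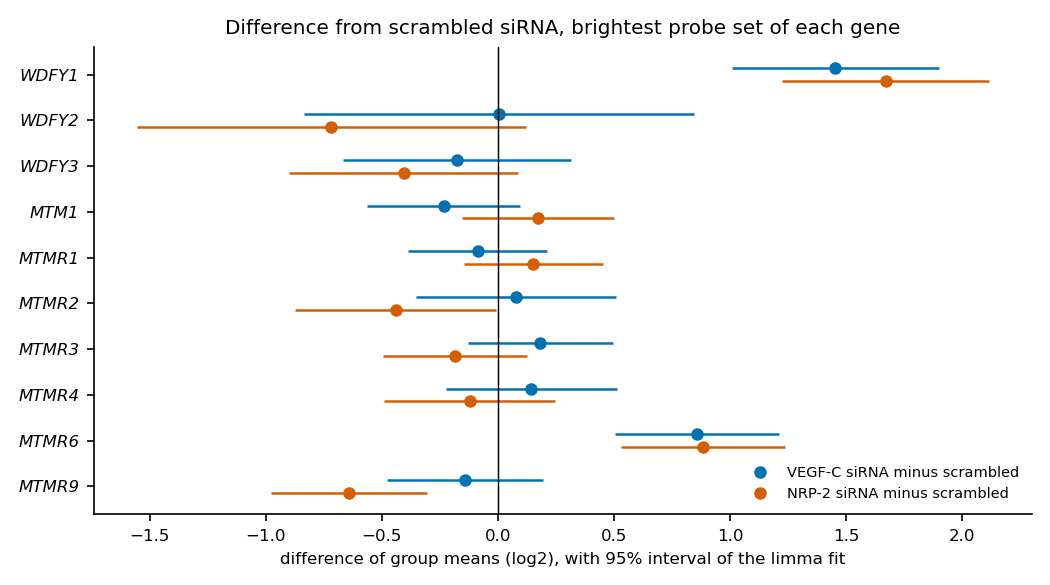
Difference of group means in log2 (x axis) for VEGF-C and NRP-2 siRNA against scrambled siRNA, for the brightest probe set of each gene (y axis); points are estimates and lines the 95% interval of the limma fit, not adjusted for the number of genes. The intervals of WDFY1 and MTMR6 lie above 0 for both siRNAs, and those of MTMR9 and MTMR2 lie below 0 for NRP-2 siRNA.

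With VEGF-C siRNA, WDFY1 and MTMR6 were higher. On their brightest probe sets the other 8 genes differed from scrambled siRNA by 0.23 or less in either direction. Dimmer probe sets past the filter were lower by more, without overlap, for WDFY3 (-0.42), MTMR9 (-0.42) and MTMR3 (-0.36). Of the 10 genes 2 were higher and 0 lower at an unadjusted p under 0.05, where 6.95% of all genes were higher and 7.8% lower. The groups did not overlap for 3 higher genes (WDFY1, MTMR3 and MTMR6) and 2 lower ones (MTM1 and MTMR9), against 26.8% and 26.6% of all genes. The median difference of the 10 genes was +0.04, and that of all genes was -0.0044. Without regard to sign the median size of the difference was 0.16 for the 10 genes and 0.20 for all. After adjustment limma called 0 of the 11131 genes, and 1642 had an unadjusted p under 0.05. Both higher genes kept an unadjusted p under 0.05 under each of 16 alternative settings, with a lowest adjusted p of 0.124 for WDFY1 and 0.131 for MTMR6.

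With NRP-2 siRNA, WDFY1 and MTMR6 were again higher and MTMR9 and MTMR2 lower, with WDFY2 and WDFY3 below scrambled siRNA at an unadjusted p above 0.05 in the fit of all groups. Thus 2 genes were higher and 2 lower at that threshold, where the shares over all genes were 6.43% and 6.85%. The groups did not overlap for 4 higher and 5 lower genes, against 25.3% and 24.4% of all genes, and MTMR4 was the gene whose groups overlapped. The median difference of the 10 genes was -0.15 and that of all genes +0.01. On the brightest probe sets the median size of the difference without regard to sign was 0.42 for the 10 genes and 0.20 for all. Over the 23 probe sets of the 10 genes past the filter it was 0.19. Limma called 0 genes after adjustment, and 1478 had an unadjusted p under 0.05. WDFY1, MTMR6 and MTMR9 kept an unadjusted p under 0.05 under each of 16 alternative settings. No setting took the dimmer MTMR6 probe set alone as the value of the gene, and that probe set was at -0.0049 with NRP-2 siRNA. MTMR2 kept an unadjusted p under 0.05 under 7 settings. It lost it without scrambled array 1, NRP-2 array 2 or either VEGF-C array, with the means over its probe sets, with equal array medians, with only the compared groups in the fit and with the replicate block. WDFY3 reached it under 3 settings and WDFY2 under 2, the replicate block among the latter.

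The siRNAs were also compared with each other, which tests where their differences from scrambled siRNA are unequal. MTMR9 (-0.50, SE 0.13), MTMR2 (-0.52, SE 0.17) and MTMR3 (-0.37, SE 0.12) were lower with NRP-2 than with VEGF-C siRNA and MTM1 was higher (+0.41, SE 0.13), at unadjusted p-values from limma of 0.0114, 0.0268, 0.0284 and 0.0237. The groups did not overlap for 5 lower and 2 higher genes, against 22.4% and 24.1% of all genes. Over all genes 8.66% were lower and 9.54% higher at an unadjusted p under 0.05, and the adjusted p-values of these 4 genes were between 0.166 and 0.222. Limma called 0 of all genes here too, with 2026 at an unadjusted p under 0.05. On their brightest probe sets WDFY1 differed by +0.22 (95% interval -0.23 to 0.66) and MTMR6 by +0.02 (-0.33 to 0.38). For these probe sets, differences between the siRNAs of up to 1.58-fold and 1.30-fold lie within the intervals. The dimmer MTMR6 probe set was lower with NRP-2 than with VEGF-C siRNA, without overlap (-0.51, SE 0.09), so the MTMR6 probe sets disagreed here too. The value for MTMR3 vanished when its probe sets were averaged (0.0057), and that of MTM1 was +0.27 for such an average. At an unadjusted p under 0.05 MTM1 did not pass without either VEGF-C array or NRP-2 array 1, MTMR2 without VEGF-C array 2 or NRP-2 array 2, and MTMR3 passed only where the array left out was VEGF-C array 2. With the replicate block WDFY2 passed it too (-0.72, limma unadjusted p = 0.0449).

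The mean of both targeting groups was also compared with scrambled siRNA, targeting minus scrambled. WDFY1 was at +1.56 (SE 0.15, 2.95-fold), with the 3rd smallest p of all genes, MTMR6 at +0.87 (SE 0.12) with the 13th, and MTMR9 at -0.39 (SE 0.12; limma adjusted p = 0.274, 0.274 and 0.336). These 3 genes were the ones whose 4 targeting arrays lay entirely above or below both scrambled arrays, 2 higher and 1 lower, where 11% and 11.2% of all genes did so. The same 3 had an unadjusted p under 0.05, beside 5.99% of all genes higher and 6.86% lower. Limma called 0 genes, with 1431 at an unadjusted p under 0.05. All comparisons against scrambled siRNA use the same 2 scrambled arrays, so a deviation of those arrays enters each of them. For MTMR9 the difference had an unadjusted p above 0.05 without either scrambled array.

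**Figure D3:**
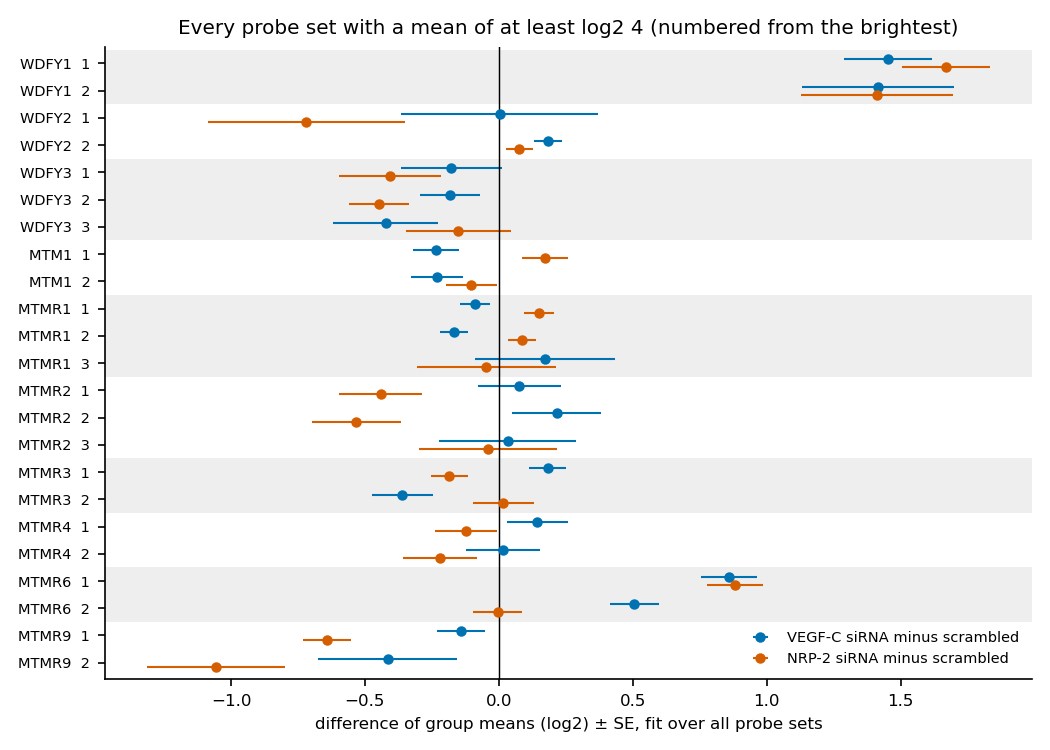
Difference from scrambled siRNA in log2 (x axis) for each of the 23 probe sets with a mean of at least log2 4 (y axis, numbered from the brightest within a gene); points are estimates, lines ± SE from the fit over all 54613 non-control probe sets. Both WDFY1 probe sets lie between +1.41 and +1.67 for both siRNAs, whereas the MTMR6 probe sets part for NRP-2 siRNA.

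Each gene had at least 2 probe sets past the filter, which gives a check on the gene level values. With VEGF-C siRNA the probe sets of 8 genes shared a sign and those of MTMR1 and MTMR3 did not. With NRP-2 siRNA they shared a sign for 5 genes (WDFY1, WDFY3, MTMR2, MTMR4 and MTMR9) and differed for WDFY2, MTM1, MTMR1, MTMR3 and MTMR6. In the fit over all non-control probe sets, an unadjusted p under 0.05 was reached by 7 of the 30 for VEGF-C and by 8 for NRP-2 siRNA. The shares over all probe sets, most of them below log2 4, were 7.86% and 7.77%. None of the 30 passed after adjustment (limma, lowest adjusted p = 0.19 and 0.172), where 0% and 0.00366% of all probe sets did.

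The genes around PI3P were examined as 5 lists with 62 genes, and 56 of them were bright enough to test. At an unadjusted p under 0.05 there were 3 higher and 5 lower with VEGF-C siRNA and 2 higher and 2 lower with NRP-2 siRNA, beside the shares of all genes given above, and limma called 0 after adjustment. Of the 12 kinases and regulators that make PI3P, 1 was higher and 2 were lower with VEGF-C siRNA and 0 and 1 with NRP-2 siRNA. PIK3R4, the scaffold of the PIK3C3 complex, was at -0.76 (SE 0.14) with NRP-2 and -0.25 with VEGF-C siRNA. INPP4A, a phosphatase that yields PI3P, was at -0.52 (SE 0.12) with VEGF-C and -0.06 with NRP-2 siRNA, and the class II kinase PIK3C2B at -0.45 (SE 0.12) and -0.22. The catalytic subunit PIK3C3 itself was at +0.04 and -0.05 (SE 0.14). The list around the further conversion of PI3P held 3 genes. In it the phosphatase FIG4 was at -0.43 (SE 0.15) with VEGF-C and +0.13 with NRP-2 siRNA. The kinase PIKFYVE was at -0.26 and -0.51 (SE 0.25) and the scaffold VAC14 at +0.04 and +0.09.

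The other 6 measured myotubularins gave 0 genes at that threshold with either siRNA, with SBF1, an inactive partner of MTMR2, at -0.14 and -0.19 (SE 0.12), SBF2, another, at -0.29 and -0.24 (SE 0.25) and MTMR10 at -0.16 and -0.06 (SE 0.13). Their differences ran from -0.29 to +0.15 with VEGF-C and from -0.24 to +0.16 with NRP-2 siRNA. Of 24 other PI3P-binding proteins 2 were lower with VEGF-C siRNA, the endosomal FYVE protein ZFYVE16 (-0.40, SE 0.14) and the sorting nexin SNX27 (-0.35, SE 0.12), and 0 passed with NRP-2 siRNA, where these stood at -0.17 and -0.18. ZFYVE1, which marks sites of autophagosome formation, was at -0.32 (SE 0.13) and -0.10. The median of this list was +0.01 with VEGF-C and -0.02 with NRP-2 siRNA.

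Among 11 measured partners of WDFY1 and WDFY3, 2 were higher with VEGF-C siRNA, and 2 were higher and 1 lower with NRP-2 siRNA. TLR3, the receptor of double-stranded RNA to which WDFY1 binds, was at log2 5.58 ± 0.24 (SD, n = 2) with scrambled, 5.68 ± 0.24 with VEGF-C and 4.65 ± 0.09 with NRP-2 siRNA, a difference of -0.93 (SE 0.19) in the last group and +0.10 with VEGF-C siRNA. TRAF6, a ubiquitin ligase that binds WDFY3, was at +0.51 (SE 0.16) with NRP-2 and +0.08 with VEGF-C siRNA. ATG12, part of the conjugation machinery of autophagy, was at +0.55 (SE 0.17) with VEGF-C and +0.51 with NRP-2 siRNA. The lowest adjusted p in this list, from limma, was 0.272 with VEGF-C and 0.218 with NRP-2 siRNA.

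**Figure D4:**
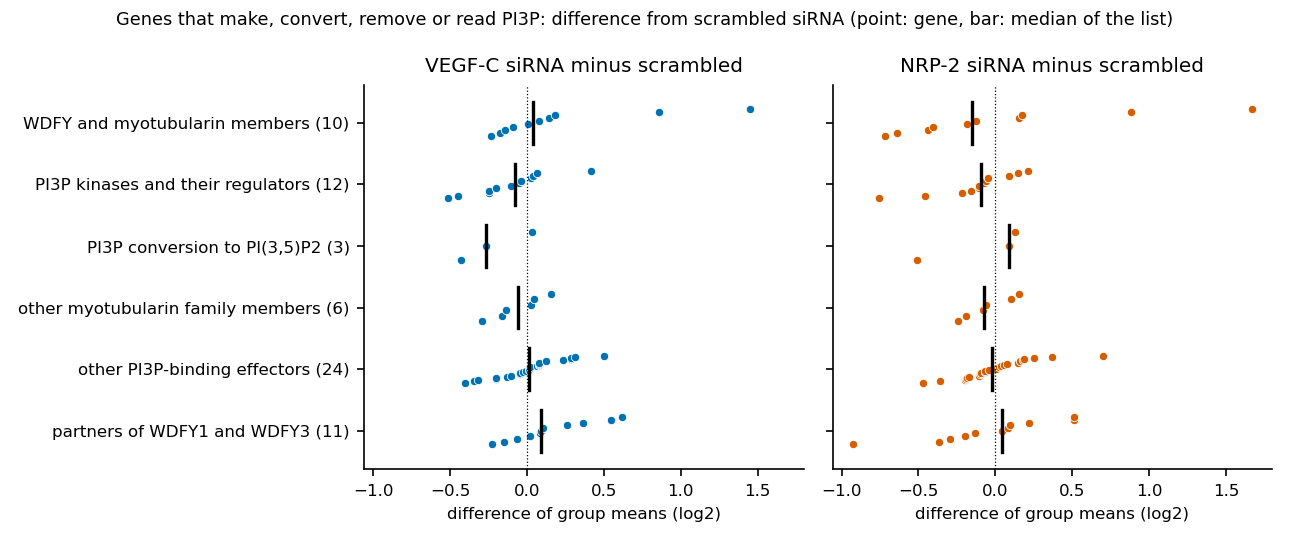
Difference from scrambled siRNA in log2 (x axis) for VEGF-C siRNA (left) and NRP-2 siRNA (right) of the 10 genes and of 5 lists of genes that make, convert, remove or read PI3P (y axis, number of measured genes in brackets); points are genes and bars medians. The medians lie between -0.26 and +0.09, and WDFY1 and MTMR6 lie to the right of all listed genes in both panels.

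To place WDFY1 and MTMR6 among all genes, the genes with the most similar course over the 6 arrays were listed by the root mean square difference of log2 profiles centred on their own mean. For WDFY1 the nearest of 11130 other genes were the laminin chain gene LAMC1 (0.175), the lysosomal membrane gene LAMP2 (0.217), MPZL3 (0.24), the F-box gene FBXL12 (0.25) and RELL1 (0.28). LAMC1, for example, stood at 9.004 and 9.50 with scrambled, 10.76 and 10.21 with VEGF-C and 11.02 and 11.02 with NRP-2 siRNA. For MTMR6 they were the deubiquitinase gene OTUD4 (0.0704), ZNF391 (0.10), the thioredoxin-like TXNDC12 (0.10), JPT2 (0.12) and the transcription factor gene SIM2 (0.13). OTUD4 stood at 11.42 and 11.51, then 12.48 and 12.21, then 12.36 and 12.21. These likenesses rest on the brightest probe set of each gene and on 6 arrays. Other probe sets of the neighbours could differ: the other LAMC1 probe set past the filter was at -0.24 with VEGF-C and -0.60 with NRP-2 siRNA, and the 4 LAMP2 probe sets ranged from +0.02 to +1.05 and from +0.10 to +1.89. Within the family, WDFY1 and MTMR6 were 0.36 apart on this measure, and the closest pair was MTMR3 and MTMR4 (0.0791).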

How the data were processed

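Per the submitters' processing notes, the authors processed the arrays in Partek with GCRMA, and the deposited table holds log2 signals for each probe set. No source used here gives their versions or settings. GCRMA draws low values together, so differences of dim probe sets are understated, and depth has no counterpart on arrays: the 2 arrays per group limit the precision. Probe sets were named from the platform annotation of 2016. A gene was represented by its brightest probe set (highest mean over 6 arrays), and 11131 genes with a mean of at least log2 4 were tested with limma 3.58.1 in R 4.3.3, with all 3 groups in one fit and Benjamini-Hochberg adjustment over all genes at 0.05. A second fit covered all 54613 non-control probe sets. The labels number the arrays 1 and 2 in each group without saying what a number marks; deviations of same-numbered arrays from their group means correlated at 0.11 (scrambled and VEGF-C), 0.58 (scrambled and NRP-2) and 0.12 (VEGF-C and NRP-2) over 11131 genes, so a fit with this number as a block was run beside the one above. The scripts were tested on simulated data. Every one of the 10 genes was described; from each list of related genes the 3 with the smallest p in either comparison with scrambled siRNA were named, and for WDFY1 and MTMR6 the 5 genes nearest in profile. PIK3C3 was named outside this rule, after its values were seen. VEGFC and NRP2 were named as targets. The genes and lists were chosen with earlier results of these data known. Promoters came from RefSeq (GRCh38.p14).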

Additional observations from a re-analysis of the deposited data

Results flagged for a closer look

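For 2 genes all arrays of the VEGF-C group lay on one side of the scrambled arrays and all arrays of the NRP-2 group on the other. The share of all genes with such a pattern was not computed, so whether 2 is an unusual number was not tested. In the single comparisons, groups without overlap were common. With VEGF-C siRNA they were found for 26.8% of all genes higher and 26.6% lower, and with NRP-2 siRNA for 25.3% and 24.4%. MTM1 was lower on both VEGF-C arrays and higher on both NRP-2 arrays, and NRP-2 minus VEGF-C siRNA was +0.41 (limma, unadjusted p = 0.0237, adjusted p = 0.210). MTMR3 was higher on both VEGF-C arrays and lower on both NRP-2 arrays, and NRP-2 minus VEGF-C siRNA was -0.37 (limma, unadjusted p = 0.0284, adjusted p = 0.222). Neither difference passed after adjustment over all genes. On its other probe set past the filter MTM1 was at +0.13 and MTMR3 at +0.38, the latter opposite in sign.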

How the results depend on the processing

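Over 10 alternative settings (9 for the comparison of both siRNAs together) and 6 omissions of 1 array, WDFY1 and MTMR6 stayed higher with both siRNAs and MTMR9 lower with NRP-2 siRNA at an unadjusted p under 0.05. A gene entered each setting by its brightest probe set or by a mean of its probe sets, never by a dimmer probe set alone. The sign of the VEGF-C difference turned for MTMR3 with the mean of all its probe sets (-0.054) or of those past the filter (-0.089, a setting chosen after seeing the data) and for MTMR2 with the G2 and mitosis covariate (-0.12). Between the siRNAs the same means put MTMR3 at 0.0057 and 0.0051 and MTMR6 at -0.24 and -0.24. Omitting 1 array gave ranges for the VEGF-C difference of -0.14 to 0.15 for WDFY2, -0.43 to 0.078 for WDFY3 and -0.0805 to 0.23 for MTMR2, and between the siRNAs of -0.48 to 0.025 for WDFY3 and -0.12 to 0.17 for MTMR6. Without the filter limma called 1 gene with VEGF-C siRNA and 1 between the siRNAs, NWD2 in both cases (+2.14 and -2.23; named after its values were seen), and 2 of the 10 genes were higher between the siRNAs. With every probe set tested, 2 were called with NRP-2 siRNA (SEPTIN7, +1.23, and an unnamed one, +1.79; named after their values were seen) and 11 between the siRNAs, unadjusted counts were 4291, 4241, 5379 and 3866 for VEGF-C, NRP-2, between and both, and 2 of the 10 genes were higher between the siRNAs. The mean of all probe sets left 1 gene lower with NRP-2 siRNA and 1 between the siRNAs; the mean of those past the filter left 1 and 1, with 0 higher between the siRNAs. Equal array medians left 1 lower with NRP-2 siRNA. The covariate gave 825 unadjusted calls with VEGF-C siRNA and 693 with both, where 0 of the 10 were lower. Omitting 1 array gave unadjusted calls of 666 to 1989, 729 to 2706, 1491 to 2396 and 594 to 2505 in the same order, 0 adjusted calls, and 0 to 1, 1 to 2, 2 to 3 and 0 to 2 of the 10 genes lower, with 0 to 1 higher between the siRNAs. Causes were not tested where the setting itself does not show them. The settings are not separate checks, since several leave the values of a gene unchanged. In a comparison of 2 groups, omitting 1 array of the third group gives the same fit as keeping only the compared groups. With the replicate block 1997, 1909 and 2269 genes had an unadjusted p under 0.05 and 0 were called after adjustment. Of the 10 genes 2 were higher and 0 lower for VEGF-C siRNA, 2 and 2 for NRP-2 siRNA, and 1 and 4 between the siRNAs. The block moved WDFY2 past the unadjusted threshold in both NRP-2 comparisons and MTMR2 out of it with NRP-2 against scrambled siRNA; it changed no other such call of the 10 genes in the comparisons between 2 groups.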
